A study of Mus musculus with 7 samples.

Results

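Costimulatory receptors of T cells were described across CD8 T cells sorted from tumours of mice with and without the nucleoside transporter ENT1. The 10 genes were chosen by name as members of the CD28 and TNF receptor families, the SLAM family and the adhesion receptor gene Cd226: Cd28, Icos, Tnfrsf4, Tnfrsf9, Tnfrsf18, Tnfrsf1b, Cd27, Cd226, Slamf6 and Slamf7. All 10 were found among the 55357 genes of the deposited TPM table, and all 10 passed the filter for testing (1 TPM or more in 3 or more libraries), as did 13798 genes in total. TPM corrects for transcript length and has one total for all libraries.

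The cells came from MCA205 tumours, a transplantable mouse fibrosarcoma, grown under the skin for 14 days and sorted as live CD45+ CD8+ T cells. The ENT1KO group (4 libraries, replicates 11, 12, 14 and 15) came from Slc29a1-/- mice and the WT group (3 libraries, replicates 1, 2 and 3) from C57Bl/6 mice. The knockout is of the host, while the implanted tumour line was the same in both groups. The labels give neither the deleted part of Slc29a1, nor the age of the mice, nor whether a library is 1 animal, so the p-values measure only the spread between these libraries. Values below follow the order of replicates 11, 12, 14 and 15 for ENT1KO and 1, 2 and 3 for WT.

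A T cell receptor signal alone activates a T cell poorly, and costimulatory receptors supply a second signal. CD28 and ICOS bind B7-type ligands on antigen-presenting cells and recruit phosphoinositide 3-kinase. The TNF receptor members OX40 (Tnfrsf4), 4-1BB (Tnfrsf9), GITR (Tnfrsf18), TNFR2 (Tnfrsf1b) and CD27 recruit TRAF adaptors and activate NF-kB, and several of them are induced after activation, whereas CD28 and CD27 are present on naive T cells. DNAM-1 (Cd226) binds CD155 and CD112, and the SLAM receptors Ly108 (Slamf6) and CRACC (Slamf7) bind copies of themselves on neighbouring cells.

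Depth was close between libraries, at an inferred 18624318 to 19660792 gene-assigned reads, and each receptor gene held an inferred 291 to 20623 reads per library. These reads were inferred from the steps of the normalized counts, a recovery that was not accepted for a count test. Slc29a1, the targeted gene, was at 13.2 to 17.6 TPM in the ENT1KO libraries and at 49.7 to 58.9 TPM in the WT libraries. Cd3e and Cd8a, which define the labelled cell type, were abundant in every library (Cd8a at 309.8 to 1304 TPM), but the libraries differed in how much other RNA they held. The CD8 T cell identity list (14 genes) summed to 9105 to 11212 TPM in ENT1KO and to 2857 to 6871 TPM in WT. Markers of some other cells ran the other way. The fibroblast and tumour list (9 genes) was at 6.31 to 769 TPM in ENT1KO against 3486 to 6679 TPM in WT. The macrophage and monocyte list (10 genes) was at 81.3 to 840.15 TPM against 2355 to 3563 TPM. The dendritic cell list (7 genes) was higher in ENT1KO, at 248 to 409 TPM against 112 to 246 TPM. The CD4 and regulatory T cell list and the B and plasma cell list overlapped. The part of this other RNA in the differences below was not tested, and in bulk samples fewer T cells and less RNA per T cell cannot be told apart. For that reason each receptor is given as TPM and as a percentage of the TPM of Cd3e, a chain of the T cell receptor complex, in the same library.

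Cd3e itself measured 588, 710, 578 and 599.9 TPM in the knockout libraries, against 289.95, 185 and 448 TPM in WT. Its ENT1KO values were close together, and its WT values spread widely, with replicate 2 the lowest. On the scale of log2(TPM + 1), used for every log2 difference in TPM, ENT1KO exceeded WT by 1.09 (SE 0.26, limma-trend adjusted p = 0.0107).

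Of the 10 receptors, 6 rose in ENT1KO in TPM, none fell, and 4 did not pass. The risers were Cd28, Icos, Cd27, Cd226, Slamf6 and Slamf7, and the 4 others were all TNF receptor genes (Tnfrsf4, Tnfrsf9, Tnfrsf18 and Tnfrsf1b). In the same limma-trend test at an adjusted p of 0.05, 27.5% of all tested genes were higher and 23.1% were lower (3800 and 3182 genes). On normalized counts, where the median log2 difference of all tested genes was 0, the split was 2894 higher and 3859 lower. There the receptors other than Tnfrsf9 kept a positive difference. The median log2 difference of the 10 was 1.05, beside 0.145 over all tested genes and 1.14 over the CD8 T cell identity list. The groups did not overlap for 5 of the 10, all higher in ENT1KO, where 30.3% of tested genes were higher and 24.9% lower without overlap. By family, 2 of 2 CD28 family genes, 2 of 2 SLAM genes and 1 of 5 TNF receptor genes rose. In the authors' deposited table the same 6 genes were higher at an adjusted p of 0.05 and the same 4 did not pass, where 16.5% of genes with an adjusted p were higher and 25.8% lower.

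**Figure D1:**
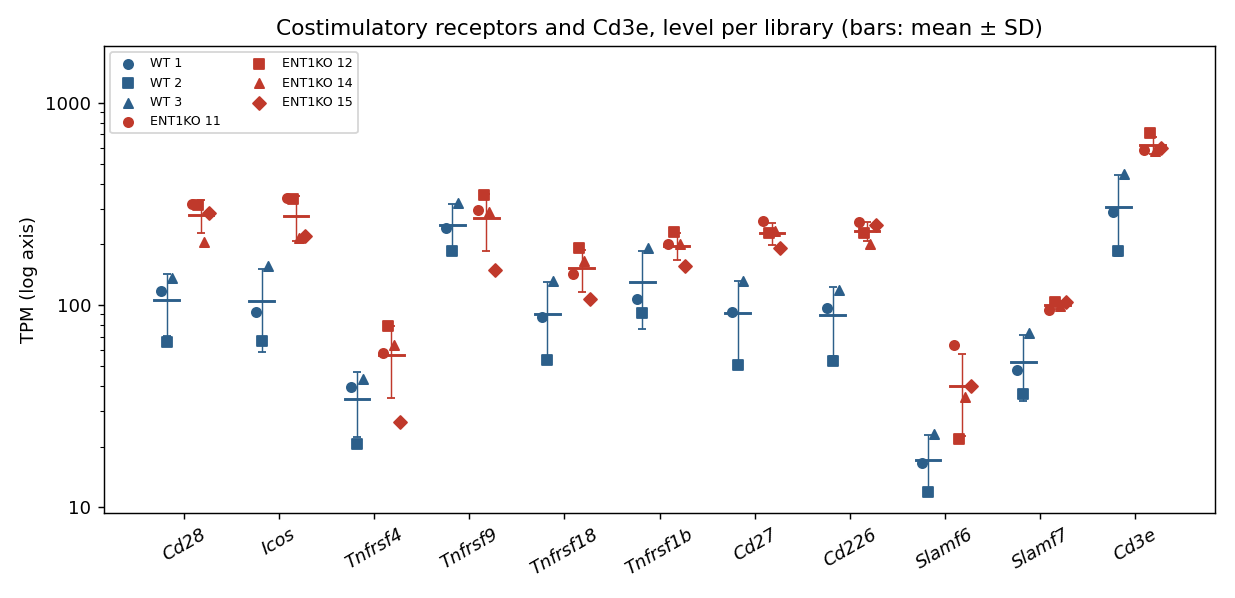
Level of each receptor gene and of Cd3e in every library, in TPM on a log axis, with WT in blue and ENT1KO in red, 1 point per library, and the mean ± SD as a line with bars. The groups separate for Cd28, Icos, Cd27, Cd226 and Slamf7 and overlap for the other 5 receptors, with the WT values of Tnfrsf9 inside its ENT1KO range.

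Relative to Cd3e the picture divided. Icos and Cd27 were higher in every ENT1KO library than in any WT library, Tnfrsf9, Tnfrsf18 and Tnfrsf1b were lower in every ENT1KO library, and 5 receptors overlapped. Among the 13024 genes with a value above 0 in all libraries, 0.691% were higher without overlap and 56.7% were lower without overlap on this scale, and the median log2 difference was -0.92. The 10 receptors had a median of -0.01. The higher count rests on narrow gaps. It was 0 with Cd8a, the summed receptor constant regions or the mean log2 TPM of the CD8 T cell identity list as the denominator. It was 1 with the summed CD3 genes, on normalized counts or with a pseudocount of 1. Over all genes the higher share in these settings ran from 0.407% (pseudocount of 1) to 0.989% (normalized counts). The lower count of 3 was 1 on normalized counts, where Tnfrsf9 alone stayed apart and 58.4% of all genes were lower without overlap.

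Cd28, the receptor for CD80 and CD86 that is the classical costimulatory receptor of T cells, measured 316, 312, 205 and 286 TPM in the knockout libraries, against 117, 66.1 and 136 TPM in WT. All ENT1KO libraries were above all WT libraries, 2.63-fold in the means (279.6 ± 51.7, SD, n = 4, against 106.5 ± 36.3 TPM, SD, n = 3). The log2 difference was 1.43 (SE 0.26, limma-trend adjusted p = 0.00377). As a percentage of Cd3e it stood at 53.9, 43.9, 35.5 and 47.6% against 40.4, 35.7 and 30.4%. The 2 ranges overlapped, through ENT1KO replicate 14 and WT replicates 1 and 2, and the log2 ratio differed by 0.34 (SE 0.17, exact two-sided permutation p = 0.143).

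Icos, a CD28 relative induced after activation that binds ICOSL, measured 338, 337, 216 and 219.9 TPM in the knockout libraries, against 92.3, 66.5 and 157 TPM in WT. The groups did not overlap, and the log2 difference was 1.45 (SE 0.30, limma-trend adjusted p = 0.00617). Within ENT1KO the values formed a higher pair (replicates 11 and 12) and a lower pair (replicates 14 and 15). Relative to Cd3e the pairs were at 57.4 and 47.4% and at 37.3 and 36.6%, against 31.8, 35.9 and 34.96% in WT. The lower pair lay only just above WT, and the log2 ratio difference of 0.36 (SE 0.16) did not pass (exact permutation p = 0.143). Cd28 and Icos lie 204.6 kb apart on chromosome 1 (60755959 to 60812518 and 61017086 to 61039479, GRCm39), with Ctla4, the inhibitory relative of CD28, between them (60926159 to 60954991).

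Cd27, the TNF receptor member of naive and memory T cells whose ligand is CD70, measured 260.4, 228, 232 and 191 TPM in the knockout libraries, against 92.2, 50.4 and 132 TPM in WT. It was the only one of the 5 TNF receptor genes to pass, with a log2 difference of 1.40 (SE 0.29, limma-trend adjusted p = 0.005997). Relative to Cd3e it was at 44.3, 32.2, 40.2 and 31.9% against 31.8, 27.2 and 29.5%, so ENT1KO replicate 15 was higher than WT replicate 1 by under 1% of that level. The log2 ratio difference was 0.32 (SE 0.13, exact permutation p = 0.114). With Cd8a, the summed CD3 genes, the summed receptor constant regions or the identity list as denominator, with normalized counts or with a pseudocount of 1, the groups overlapped for Cd27, and for Icos they overlapped with Cd8a, the constant regions or the identity list.

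Cd226, the activating receptor for CD155 and CD112, measured 257, 229, 201 and 248 TPM in the knockout libraries, against 97.0, 53.2 and 119 TPM in WT. The lowest ENT1KO value was above the highest WT value, and the log2 difference was 1.44 (SE 0.25, limma-trend adjusted p = 0.0032). Relative to Cd3e it was at 43.7, 32.3, 34.8 and 41.4% against 33.5, 28.7 and 26.5%. Only ENT1KO replicate 12 fell within the WT range, and the log2 ratio difference was 0.36 (SE 0.14, exact permutation p = 0.114). Without ENT1KO replicate 12, or without WT replicate 1, the groups did not overlap for Cd226, at log2 ratio differences of 0.43 and 0.45.

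Slamf7, a SLAM receptor of cytotoxic lymphocytes, plasma cells and some myeloid cells, varied least of the 10 among the knockout libraries. The knockout libraries held 94.3, 104.2, 99.4 and 103.5 TPM, a coefficient of variation of 4.58%, and the WT libraries 47.9, 36.4 and 72.8 TPM, a coefficient of variation of 35.5%. The log2 difference was 0.98 (SE 0.21, limma-trend adjusted p = 0.00609). As a percentage of Cd3e all 7 libraries lay between 14.7 and 19.7%, and the log2 ratio difference was -0.10 (SE 0.10, exact permutation p = 0.457).

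Slamf6, a SLAM receptor known from stem-like and naive T cells, had the lowest mean of the 10 in both groups. In ENT1KO replicates 11 and 15 Tnfrsf4 was lower. Slamf6 measured 63.4, 21.7, 35.1 and 39.7 TPM in the knockout libraries, against 16.7, 11.9 and 23.1 TPM in WT. ENT1KO replicate 12 lay below WT replicate 3, so the groups overlapped, although the log2 difference of 1.12 (SE 0.35) passed (limma-trend adjusted p = 0.0289). The call for Slamf6 was lost when ENT1KO 11, ENT1KO 15, WT 1 or WT 2 was left out (limma adjusted p of 0.0511, 0.0531, 0.0709 and 0.1297) and when all genes above 0 TPM in 1 library were tested (0.0553). Relative to Cd3e it ran from 3.06% in ENT1KO replicate 12 to 10.8% in ENT1KO replicate 11, with WT at 5.75, 6.41 and 5.14% inside that range. The naive and memory T cell list (7 genes) was also lowest in ENT1KO replicate 12 and highest in ENT1KO replicate 11 among the knockout libraries, at 823.5 and 1571 TPM. In WT this list was at 403 to 688 TPM.

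Tnfrsf9 encodes 4-1BB, a receptor absent from resting T cells and induced by antigen. It measured 296, 350.2, 289 and 149.8 TPM in the knockout libraries, against 241, 185 and 322 TPM in WT. The WT values lay inside the ENT1KO range, and the log2 difference was 0.09 with a 95% interval from -0.61 to 0.79 (limma-trend adjusted p = 0.813). Relative to Cd3e it was at 50.4, 49.3, 50.1 and 25.0% in ENT1KO and at 83.1, 99.9 and 71.8% in WT. Every ENT1KO library was thus below every WT library, replicate 15 by the most. The means were 43.7 ± 12.5% (SD, n = 4) and 84.9 ± 14.2% (SD, n = 3), and the log2 ratio differed by -1.003 (SE 0.29), which is 0.499 times the WT ratio. The exact two-sided permutation p was 0.0286, the smallest that 35 splits can give. After Benjamini-Hochberg adjustment over the 13024 genes it was 0.0533, the smallest adjusted value of any gene there. Of these genes, 6980 had an exact permutation p under 0.05 and so the same p, which does not set Tnfrsf9 apart. The direction was the same in 14 of 14 alternatives, with log2 ratio differences from -1.12 to -0.75. All of them divide by Cd3e or by other T cell genes, which also rose (median log2 difference 1.14 over the identity list). With Tnfrsf9 at 0.09 and Cd3e at 1.09 in TPM, the ratio difference largely restates the rise of Cd3e. The shared direction is therefore no separate support. The ratio difference of -1.003 was close to the median of all genes on this scale (-0.92), which includes genes of cells other than T cells.

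Tnfrsf1b, the TNF receptor of activated T cells, regulatory T cells and many myeloid cells, measured 201.5, 230.3, 201 and 156 TPM in the knockout libraries, against 107, 91.3 and 192 TPM in WT. WT replicate 3 lay inside the ENT1KO range, and the log2 difference of 0.66 (SE 0.25) did not pass (limma-trend adjusted p = 0.059). It passed for Tnfrsf1b without ENT1KO replicate 15 (limma adjusted p = 0.048), without WT replicate 3 (0.00444) and with array weights (0.00993). Relative to Cd3e it was lower in all ENT1KO libraries, at 34.3, 32.4, 34.8 and 26.03% against 36.97, 49.3 and 42.9%. The log2 ratio difference was -0.43 (SE 0.15, exact permutation p = 0.0286, adjusted over all genes 0.0533). As for Tnfrsf9, this p was shared by 6980 of the 13024 genes. On normalized counts the Tnfrsf1b ratios overlapped, at -0.38 (exact permutation p = 0.0571).

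Tnfrsf18 encodes GITR, which is high on regulatory T cells and rises on activated CD8 T cells. It measured 143, 193, 166 and 107 TPM in the knockout libraries, against 87.2, 53.4 and 132 TPM in WT. ENT1KO replicate 15 fell below WT replicate 3, and the log2 difference of 0.80 (SE 0.31) did not pass (limma-trend adjusted p = 0.0608). It passed for Tnfrsf18 without ENT1KO replicate 15 (limma adjusted p = 0.0383), without WT replicate 3 (0.01497) and with array weights (0.0216). Relative to Cd3e the 3 WT libraries were almost equal, at 30.1, 28.8 and 29.5%, and the ENT1KO libraries stood just below or well below them, at 24.3, 27.2, 28.8 and 17.9%. ENT1KO replicate 14 and WT replicate 2 were nearly level, at 28.77 and 28.84%, and the log2 ratio difference of -0.29 (SE 0.15) did not pass (exact permutation p = 0.143). The Tnfrsf18 ratios overlapped on normalized counts (-0.23), and the difference was -0.14 without ENT1KO replicate 15.

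Tnfrsf4, the OX40 receptor, measured 58.3, 78.6, 63.9 and 26.6 TPM in the knockout libraries, against 39.6, 20.6 and 43.3 TPM in WT. ENT1KO replicate 15 was below WT replicates 1 and 3, and the log2 difference of 0.67 had a 95% interval from -0.24 to 1.58 (limma-trend adjusted p = 0.184). Without ENT1KO replicate 15 the difference for Tnfrsf4 was 0.99 and passed (limma adjusted p = 0.0238). Relative to Cd3e it was at 9.93, 11.1, 11.1 and 4.43% against 13.7, 11.2 and 9.66%, a log2 ratio difference of -0.41 (SE 0.35, exact permutation p = 0.486). Tnfrsf4 and Tnfrsf18 are neighbours on chromosome 4, 9.55 kb apart (156098300 to 156101069 and 156110621 to 156113352, GRCm39), and Tnfrsf9 (150999019 to 151030559) and Tnfrsf1b (144940033 to 144973440) lie on the same chromosome. All 4 of these genes had their lowest ENT1KO value in replicate 15 and their highest in replicate 12. This was not particular to them or to chromosome 4. Cd8a, Pdcd1, Ccr8, Il2ra and Tigit (on chromosome 16) had it too, while Cd28 and Cd27 were highest in replicate 11.

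**Figure D2:**
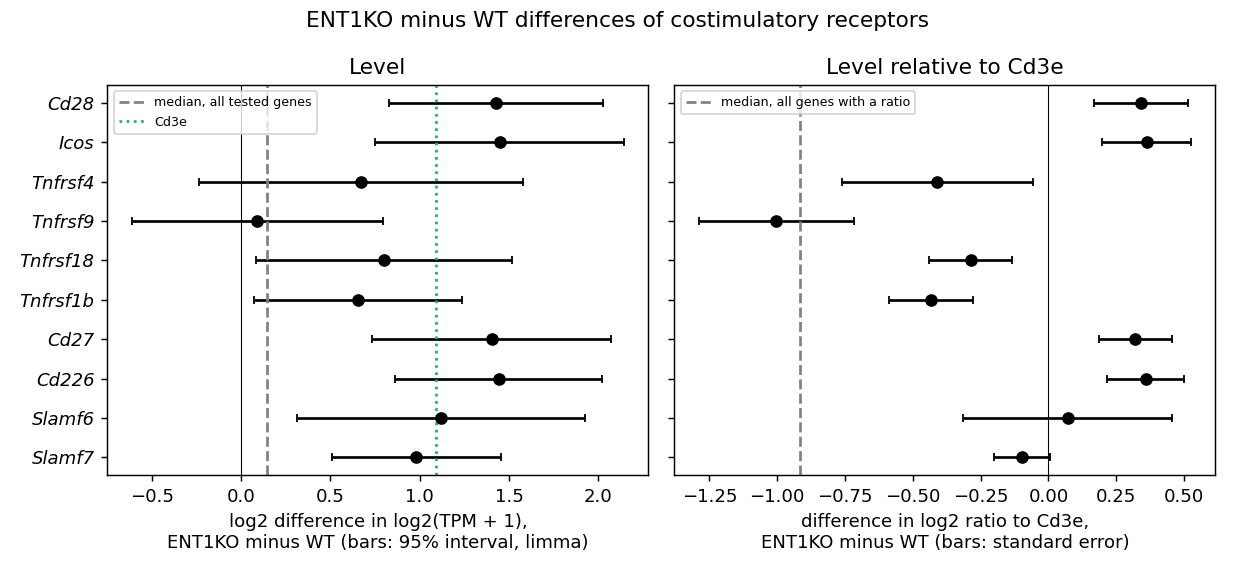
Differences between ENT1KO and WT for the 10 receptors, left on the log2(TPM + 1) scale with 95% intervals from limma, right for the log2 ratio to Cd3e with standard errors. On the left Slamf7 and the TNF receptor genes other than Cd27 lie below the dotted line that marks Cd3e, and on the right the same 5 lie below 0, with Tnfrsf9 at -1.003 beside the dashed median of all genes at -0.92.

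In WT the order of the mean levels was Tnfrsf9, Tnfrsf1b, Cd28, Icos, Cd27, Tnfrsf18, Cd226, Slamf7, Tnfrsf4 and Slamf6. In ENT1KO it was Cd28, Icos, Tnfrsf9, Cd226, Cd27, Tnfrsf1b, Tnfrsf18, Slamf7, Tnfrsf4 and Slamf6. Tnfrsf9 ranked first in 3 of 3 WT libraries and in 2 of 4 ENT1KO libraries, and was the sixth most abundant in ENT1KO replicate 15. From Tnfrsf1b to Cd226 in the WT order, from Cd28 to Cd27 in the ENT1KO order, for Slamf7 and Tnfrsf4 in WT and for Tnfrsf4 and Slamf6 in ENT1KO, the means of neighbours differed by less than the larger SD of the pair. Tnfrsf9 made up 25.7, 29.1 and 24.2% of the summed TPM of the 10 genes in WT replicates 1, 2 and 3 and 14.6, 16.8, 16.9 and 9.8% in ENT1KO replicates 11, 12, 14 and 15. The summed level was 967 ± 348 TPM in WT and 1837 ± 264 TPM in ENT1KO.

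**Figure D3:**
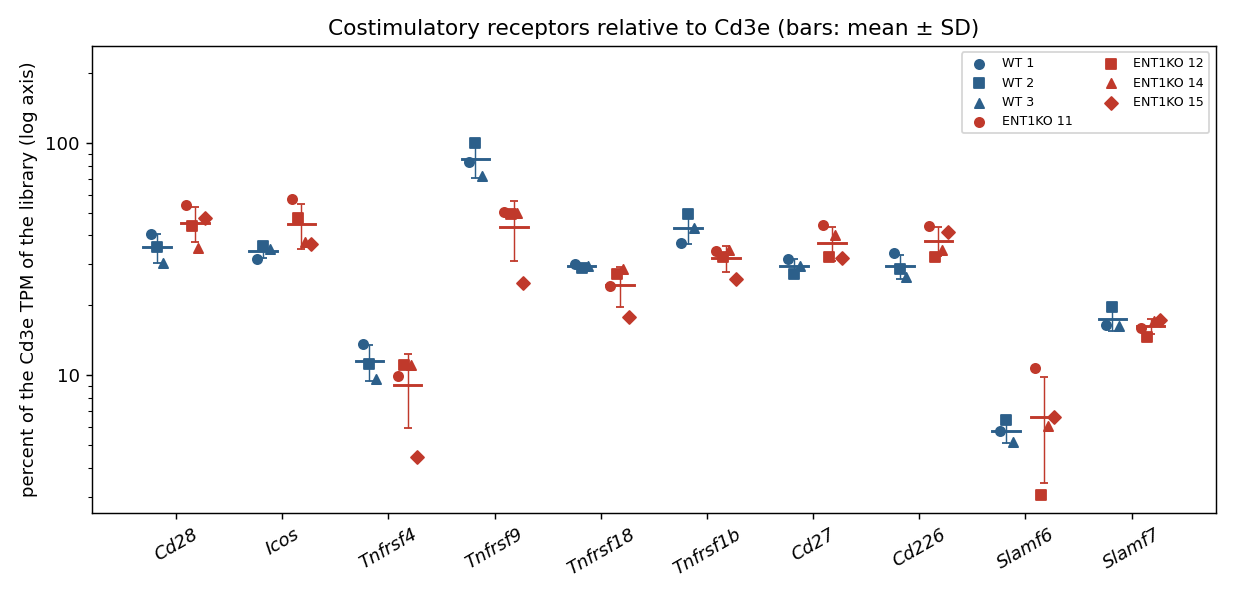
Each receptor as a percentage of the Cd3e TPM of the same library, on a log axis, with WT in blue and ENT1KO in red, 1 point per library, and mean ± SD. Tnfrsf9 stands out with 71.8 to 99.9% in WT and 25.0 to 50.4% in ENT1KO, and Slamf7 lies in the same narrow band in both.

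The promoter of Tnfrsf9, which had the most negative difference in its ratio to Cd3e, is shown with those of Slamf7 and Cd27, whose ratio differences were -0.10 and 0.32. RefSeq promoters on GRCm38.p6, a build other than that of the deposited table, matched 7 of the 10 genes in 8 windows, and the 250 bases before the annotated start are printed 5′ to 3′ on the gene's strand. Capitals mark matches to the NF-kB consensus or to the AP-1 motif TGANTCA, searched on both strands, and the genes, windows and motifs shown were chosen after their letters and values were seen.
Tnfrsf9, second start (chr4:150927749-150927998, plus strand): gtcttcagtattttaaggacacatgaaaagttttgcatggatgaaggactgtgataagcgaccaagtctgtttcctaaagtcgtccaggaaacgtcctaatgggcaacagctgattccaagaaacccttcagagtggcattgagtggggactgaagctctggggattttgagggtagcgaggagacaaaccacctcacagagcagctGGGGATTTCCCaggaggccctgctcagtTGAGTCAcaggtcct
Slamf7 (chr1:171649000-171649249, minus strand): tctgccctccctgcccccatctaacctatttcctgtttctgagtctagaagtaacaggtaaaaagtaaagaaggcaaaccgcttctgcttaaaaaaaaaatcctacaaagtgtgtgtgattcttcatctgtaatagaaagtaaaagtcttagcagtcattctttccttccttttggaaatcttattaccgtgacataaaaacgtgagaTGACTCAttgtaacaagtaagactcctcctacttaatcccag
Cd27 (chr6:125237028-125237277, minus strand): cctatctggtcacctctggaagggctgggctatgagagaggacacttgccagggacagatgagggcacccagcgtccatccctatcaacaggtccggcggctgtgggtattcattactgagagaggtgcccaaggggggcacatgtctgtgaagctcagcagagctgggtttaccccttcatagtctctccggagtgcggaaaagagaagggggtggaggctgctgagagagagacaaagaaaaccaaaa

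The second Tnfrsf9 window held 2 overlapping matches to the NF-kB consensus, with first bases at -43 and -42 from the start on the gene's strand, and an AP-1 match at -15. It was the only one of the 8 windows with an NF-kB match, where 7.25% of 32851 promoter windows of the same length had one. An AP-1 match was found in 2 of the 8, the other being at -42 in Slamf7, beside 6.75% of all windows. The NFAT core GGAAA was in 6 of the 8, beside 55.6% of all windows, and 1 of its matches in Tnfrsf9 (at -38) overlapped the NF-kB matches. A match describes these letters only.

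CD28 shares its ligands with the inhibitory receptor CTLA-4, and DNAM-1 shares CD155 with TIGIT and CD96, so these 3 ratios were formed in each library. The ratio of Cd28 to Ctla4 was 0.631, 0.5096, 0.554 and 0.713 in ENT1KO replicates 11, 12, 14 and 15 and 0.537, 0.5697 and 0.658 in WT replicates 1, 2 and 3. The ranges overlapped throughout (log2 difference 0.03, SE 0.14, exact permutation p = 0.886), as Ctla4 rose with Cd28 (log2 difference 1.41, limma-trend adjusted p = 0.0038). The ratio of Cd226 to Tigit was 1.32, 0.76996, 0.978 and 1.49 in ENT1KO and 0.922, 0.722 and 0.664 in WT. ENT1KO replicate 12 lay inside the WT range, and the log2 difference of 0.53 (SE 0.26) did not pass (exact permutation p = 0.114, 0.171 adjusted over the 3 pairs). For Cd226 to Cd96 the ratios were 1.37, 0.9997, 1.28 and 1.36 against 1.17, 0.98009 and 0.978, with a log2 difference of 0.26 (SE 0.14, exact permutation p = 0.114, 0.171 adjusted over the 3 pairs).

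**Figure D4:**
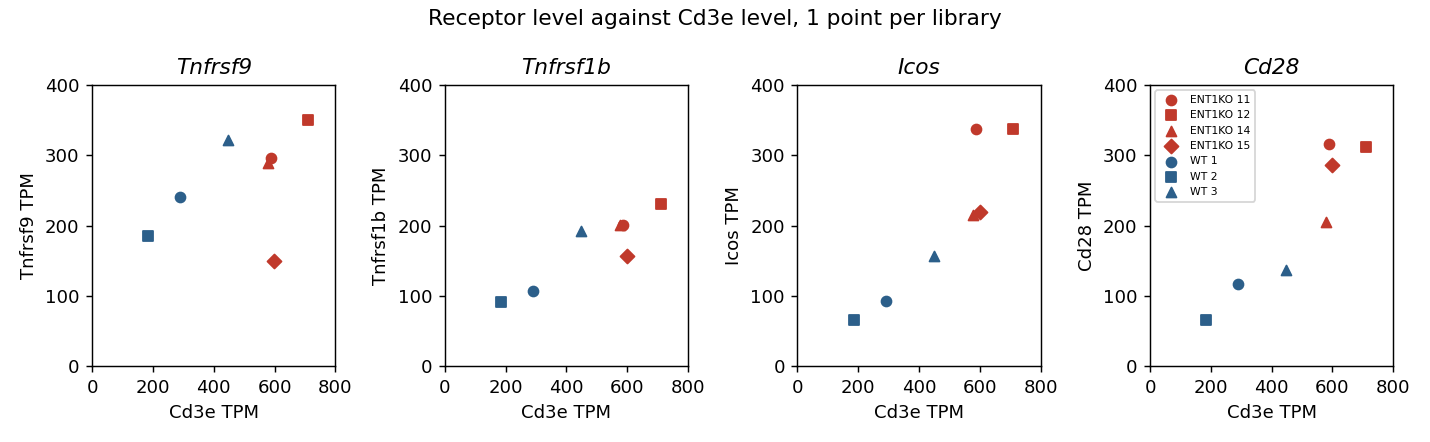
TPM of Tnfrsf9, Tnfrsf1b, Icos and Cd28 plotted against the TPM of Cd3e, 1 point per library, with WT in blue and ENT1KO in red. Within WT all 4 genes are lowest in replicate 2 and highest in replicate 3, as Cd3e is (185 and 448 TPM), while ENT1KO replicate 15 has the lowest Tnfrsf9 of all libraries (149.8 TPM) at a Cd3e of 599.9 TPM.

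Across the 7 libraries the receptors other than Tnfrsf9, Tnfrsf4 and Slamf6 followed Cd3e with Pearson's r from 0.925 (Tnfrsf18) to 0.9898 (Slamf7) on the log2(TPM + 1) scale. Tnfrsf9 had an r of 0.412 with Cd3e, Tnfrsf4 0.718 and Slamf6 0.753. Among pairs of receptors r was highest for Cd28 and Cd226 (0.989) and lowest for Tnfrsf9 and Slamf6 (0.129). These are descriptions over 7 libraries that share the genotype difference and the other RNA described above. The gene most like each receptor over the 7 libraries was Cirbp for Cd28 (r = 0.998), Rpl39 for Icos (0.998), Fam20a for Tnfrsf4 (0.993), Tm9sf1 for Tnfrsf9 (0.959), Chm for Tnfrsf18 (0.995), Ap2b1 for Tnfrsf1b (0.994), Qrich1 for Cd27 (0.999), Arhgap45 for Cd226 (0.999), Map2k7 for Slamf6 (0.985) and Hcls1 for Slamf7 (0.998).

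The listed ligand genes of the receptors were at 40.66 TPM or less in every library, levels that Slamf6 and Tnfrsf4 also had in some libraries. Of 11 ligand genes 9 were tested, 2 rose and 2 fell, beside 27.5% and 23.1% of all tested genes, and their median log2 difference was 0.11 beside 0.145 over all tested genes. Pvr (CD155), the most abundant, was at 40.3 ± 0.32 against 32.3 ± 1.6 TPM and rose by 0.31 (limma-trend adjusted p = 0.0159), but on normalized counts Pvr differed by 0.04 (limma adjusted p = 0.759). Lta (lymphotoxin alpha), the other riser, was at 21.03 ± 3.78 against 12.3 ± 2.22 TPM. Tnfsf9, the ligand of 4-1BB, fell from 7.71, 9.01 and 6.77 TPM in WT to 2.64, 2.41, 4.21 and 3.67 TPM in ENT1KO (log2 difference -1.08, limma-trend adjusted p = 0.0043), and Nectin2 (CD112) fell from 5.02 ± 1.08 to 0.245 ± 0.25 TPM (SD, n = 3 and n = 4). Cd86 and Tnf, the next most abundant, did not pass, at 28.02 ± 3.21 against 23.8 ± 1.43 TPM and 18.8 ± 3.46 against 19.9 ± 1.13 TPM. Cd70 and Tnfsf18 were under the level needed for the test. Lta, Tnfsf9 and Nectin2 were named after their values were seen.

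Of 15 genes listed as other costimulatory receptors 13 were tested, 12 rose and none fell, beside 27.5% and 23.1% of all tested genes. Their median log2 difference was 1.03. Cd2 and Cd5 are also in the CD8 T cell identity list, and whether each listed gene, Cd5 among them, acts as a costimulator in these cells was not tested. The 12 include Cd40lg, which encodes a ligand and also stands in the CD4 and regulatory T cell list, at 4.9 ± 1.1 against 2.76 ± 0.81 TPM. Cd40lg did not pass on normalized counts (limma adjusted p = 0.0957), with all genes above 0 TPM in 1 library tested (0.06601) or with ENT1KO 11, 12 or 14 or WT 1 or 2 left out (0.0625 to 0.129). Klrk1 (NKG2D) was at 779 ± 216 against 328 ± 113 TPM, Cd2 at 521 ± 39.5 against 259.8 ± 123 TPM and Cd6 at 198.5 ± 30.4 against 84.6 ± 34.4 TPM. Relative to Cd3e, 2 of the 13 were higher and 1 lower without overlap, beside 0.691% and 56.7% of all genes. Of 10 inhibitory receptors 6 rose and none fell, beside 27.5% and 23.1% of all tested genes, with a median of 0.83. Relative to Cd3e none of them was higher and 2 were lower without overlap, beside 0.691% and 56.7% of all genes. Ctla4 was at 471 ± 109 against 180.4 ± 55.96 TPM, Tigit at 216 ± 56.6 against 119 ± 54 TPM, and Pdcd1 at 402 ± 164 against 265 ± 116 TPM without passing (limma-trend adjusted p = 0.267). Tigit no longer passed when ENT1KO replicate 11, 12 or 14 or WT replicate 1 or 2 was left out (limma adjusted p between 0.0605 and 0.136), with normalized counts (0.0619) or when all genes above 0 TPM in 1 library were tested (0.0693).

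The signalling proteins below the receptors were mostly higher in TPM. Of 23 adaptor and kinase genes 16 rose and 1 fell, beside 27.5% and 23.1% of all tested genes, with a median of 0.86. Fyn was at 241 ± 17.7 against 114 ± 35.2 TPM, and Pik3cd, the lymphocyte phosphoinositide 3-kinase subunit, at 236 ± 21.9 against 109 ± 38.6 TPM. The gene that fell was Sh2d1b1 (EAT-2), a SLAM adaptor of innate cells, at 1.03 ± 0.71 against 3.03 ± 0.92 TPM (limma-trend adjusted p = 0.0198), named after its values were seen. Relative to Cd3e, 1 of the 23 was higher and 7 were lower without overlap, beside 0.691% and 56.7% of all genes. Of 13 NF-kB genes 6 rose and 1 fell, beside the same shares of 27.5% and 23.1%, with a median of 0.45. Tnfaip3 (A20) rose (818 ± 79 against 354 ± 104 TPM), Nfkb1 rose (161 ± 13.8 against 117 ± 15.8 TPM) and Nfkbia fell (136 ± 12.4 against 222 ± 36.1 TPM, limma-trend adjusted p = 0.00468). Tnfaip3 and Nfkbia both encode inhibitors of NF-kB. Relative to Cd3e, 8 of the 13 were lower without overlap, beside 56.7% of all genes, and none was higher.

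Several of the receptors are also expressed by other lymphocytes, whose markers were read in the same libraries. Beside the counts that follow, 27.5% of all tested genes rose and 23.1% fell. Cd4 and Foxp3, which define CD4 and regulatory T cells, were at 0.8 to 1.95 and 0.31 to 0.77 TPM in ENT1KO and at 1.79 to 3.22 and 1.51 to 1.63 TPM in WT. In the CD4 and regulatory T cell list (7 genes) 2 rose, 2 fell and 3 did not pass, with a summed level of 89.3 to 206 TPM in ENT1KO and 62.5 to 119 TPM in WT, lowest in replicate 15 among the knockout libraries. Its most abundant genes were Ccr8 (77.8 ± 29.1 against 44.8 ± 15.2 TPM), Il2ra (41.2 ± 10.5 against 24.9 ± 8.62 TPM) and Ikzf2 (20.8 ± 8.3 against 13.1 ± 4.89 TPM), which activated CD8 T cells can express. The risers of this list were Il2ra and Cd40lg, and Il2ra no longer passed on normalized counts (limma adjusted p = 0.124), after quantile normalization (0.0538), with a pseudocount of 0.1 (0.0525), with the weakest filter (0.0911) or with ENT1KO 11, 12 or 14 or WT 1 or 2 left out (0.0728 to 0.174). The NK cell list (7 genes) summed to 118 to 294 TPM in ENT1KO and to 445 to 592 TPM in WT, led by Fcer1g and Tyrobp, which myeloid cells share, and by Eomes, which CD8 T cells share. In the NK cell list 1 gene rose, 4 fell and 2 did not pass. Ncr1, which defines NK cells, was at 0.29 to 1.23 TPM in ENT1KO and 1.17 to 1.53 TPM in WT. Klra4 of the same list was at 0.34 to 3.58 TPM in ENT1KO and 15.48 to 33.95 TPM in WT. It was named after its values were seen. Of the macrophage and monocyte list, led by Lyz2, C1qa and C1qb, 10 of 10 genes fell. The same held for 8 of 8 tested fibroblast and tumour genes, led by Postn, Col3a1 and Sparc, 5 of 5 neutrophil and mast cell genes, led by S100a9, S100a8 and Csf3r, and 4 of 4 endothelial genes, led by Eng, Cdh5 and Emcn. In the dendritic cell list 1 of 6 tested genes rose (Ccr7, which naive T cells share), Itgax and Siglech did not pass, and 1 of 7 B and plasma cell genes (Cd79b) reached the level for the test and rose, while Cd79a and Mzb1 stayed under 1.5 TPM. In the naive and memory T cell list 6 of 7 genes rose, Tcf7 and Ccr7 among them (229 ± 67.5 against 88.4 ± 35.2 TPM and 261 ± 76.6 against 122 ± 67.1 TPM), and Klf2 did not pass. Which cells gave the reads of each receptor was not tested.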

How the data were processed

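Poly(A)-selected RNA-seq of 7 sorted CD8 T cell samples was analysed, 4 ENT1KO and 3 WT by the sample titles. The authors deposited TPM per gene, per the file headers. They also deposited a comparison whose sample columns hold a signal, gene read counts divided by 1 size factor per sample. That table gives log2 fold changes, their statistic (a score) and p-values, as deposited. Build GRCm39, DESeq2 1.30.1, RSEM, STAR 2.7.1a and Trimmomatic (0.35 and 0.38) appear in the submitters' processing notes, which state no roles. The sources used here give no annotation release. All values of each signal column were whole multiples of 1 step (100% within 0.01), from which the read totals were inferred. The steps of 2 columns lie so near 1 that the recovery was not accepted, so no count test was run and no counting intervals are given.

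All genes reaching 1 TPM in 3 or more samples entered the fit with limma-trend and robust empirical Bayes (limma 3.58.1, R 4.3.3) on log2(TPM + 1), genotype only, with Benjamini-Hochberg adjustment over all tested genes at 0.05. Changes of genes near the pseudocount are understated on this scale. Ratios to Cd3e used no pseudocount, and group means of log2 ratios were compared by exact two-sided permutation over 35 splits. Groups "did not overlap" when all values of one lay above those of the other. The scripts were tested on simulated data. All receptors are named, with the 3 most abundant genes of each list, genes most alike by Pearson's r (mean of at least 5 TPM) and those said to be chosen later. Outside this rule, genes such as Cd8a, Cd4, Foxp3, Ncr1, Cd5 and Cd40lg were also named. One listed gene is not reported here. The receptors and lists were chosen with earlier results of these data known. Figures used matplotlib 3.10.9 in Python 3.11.15.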

Additional observations from a re-analysis of the deposited data

Results flagged for a closer look

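Of 23 sets of 4 ENT1KO values examined (TPM and log2 ratio to Cd3e of the 10 receptors, and the 3 receptor pairs), 2 held a library far from the rest, where chance gives about 1 in 20. For the log2 ratio of Tnfrsf9 to Cd3e the gap between ENT1KO replicate 15 and its nearest neighbour took 0.969 of the range of the group, above Dixon's 95% limit for 4 samples. The ratio was 25.0% there and 49.3 to 50.4% in replicates 11, 12 and 14, and without replicate 15 the log2 ratio difference of Tnfrsf9 was -0.75 with the groups still apart. For the log2 ratio of Tnfrsf4 to Cd3e the gap of the same library took 0.881 of the range, at 4.43% against 9.93 to 11.1%, and without it the log2 ratio difference of Tnfrsf4 was -0.09 in place of -0.41. Groups of 3 WT libraries were not examined in this way.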

How the results depend on the processing

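No paired analysis was possible because the ENT1KO and WT libraries share no replicate number. The count of receptors higher in TPM stayed between 5 and 8 in all 15 alternatives, and the count of lower ones was 0 in all, with 6 higher in the authors' deposited table. When 1 library was left out these counts ran from 5 to 8 and from 0 to 0. The number of all tested genes that were higher also moved. It was 3116 of 26819 with the weakest filter, where 5 receptors were higher. Without WT replicate 3 it was 3684 of 13179, where 8 receptors were higher. Relative to Cd3e, the count of receptors higher without overlap was 0 with Cd8a, with the summed constant regions or with the identity list as denominator, and 1 with the summed CD3 genes, on normalized counts or with a pseudocount of 1. It was 2 to 3 with 1 library left out. The share of all genes higher without overlap also moved, from 0.407% with a pseudocount of 1 to 1.93% without WT replicate 1. The count lower without overlap was 1 on normalized counts and 3 to 4 with 1 library left out. It was 4 without WT replicate 3, where 83.6% of all genes were lower, beside 58.4% on normalized counts. The unpassed difference of Tnfrsf9 in TPM changed sign after quantile normalization (-0.0327), on normalized counts (-0.0561), without ENT1KO replicate 12 (-0.05), without WT replicate 2 (-0.10) and in the authors' deposited table (-0.00975, adjusted p = 0.985), and ran from -0.10 to 0.354 with 1 library left out. The log2 ratio difference of Slamf6 to Cd3e changed sign with the constant regions (-0.0031) or the identity list (-0.0135) as denominator and without ENT1KO replicate 11 (-0.21) or WT replicate 3 (-0.0087), reached 0.398 without ENT1KO replicate 12, and that of Slamf7 on normalized counts (0.0016). The log2 difference of the Cd28 to Ctla4 ratio ran from -0.0598 to 0.11 with 1 library left out and was below 0 without ENT1KO replicate 11 (-0.0007), ENT1KO replicate 15 or WT replicate 1 (-0.04). The cause of these changes was not tested. With 1 library left out the exact test of a ratio cannot pass 0.05, so those p-values say nothing on stability.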
